A study of Mus musculus with 6 samples.

Results

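Immunoglobulin kappa variable (Igkv) segments are the 100 rows of the deposited gene expression table with the biotype IG_V_gene and a name starting with Igkv, of 48709 genes in all. They were taken by name and biotype alone, without regard to their reads. The study sequenced the RNA of splenic invariant natural killer T (NKT) cells sorted from mice in the resting state, with 3 samples labelled Gpx4 cKO, a conditional knockout of the lipid peroxidase gene Gpx4, and 3 labelled WT. The sources used here do not give the mouse strain, age or sex, or the Cre driver of the knockout, nor whether each sample came from another animal. The table names its 6 libraries by a number from 18 to 23 and an index pair, and 0 of these 6 names could be matched to a label. Each library is therefore described singly, without a genotype, and no comparison of Gpx4 cKO with WT was made.

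Immunoglobulin light chains are made by B lymphocytes and, in far larger amounts, by the plasma cells that B lymphocytes become. In developing B cells one of many Igkv segments is joined to one of a few Igkj segments, and splicing links the joined exon to the constant exon Igkc. The share of each segment in the Igkv transcripts therefore reflects which rearranged light chains were expressed where the transcripts came from, weighted by how much RNA each cell gave. The source of these transcripts in the sorted samples was not tested. NKT cells carry a rearranged T cell receptor and are not known to make light chains. The markers of NKT cells were present in every library: the 8 listed genes, among them the lineage factor gene Zbtb16, the T cell receptor constant gene Trac and the invariant segment Trav11, summed to between 3363 and 4816 CPM, which are reads scaled to the effective library size.

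All 100 segments lie on chromosome 6, and the coordinates and strand of all 100 in the table equal those of GENCODE release M21 on GRCm38. The kappa locus as tabulated runs from 67555497 to 70704177, and Igkc lies beyond it at 70726435 to 70726966 on the plus strand. The sequences that follow show how far the segments that dominate the reads differ from each other. Each is the last 90 bases of the GENCODE M21 transcript, 5′ to 3′, and the capitals run from the codon of the last conserved cysteine to the end of the germline exon, which is the part of the antigen-binding loop CDR3 that the segment itself brings. The first set holds the 4 segments that ranked among the 10 most read segments of every library.
Igkv12-44: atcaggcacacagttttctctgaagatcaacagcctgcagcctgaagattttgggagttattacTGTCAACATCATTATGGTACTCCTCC
Igkv1-117: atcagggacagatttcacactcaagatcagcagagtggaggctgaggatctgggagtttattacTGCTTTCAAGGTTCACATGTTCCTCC
Igkv5-43: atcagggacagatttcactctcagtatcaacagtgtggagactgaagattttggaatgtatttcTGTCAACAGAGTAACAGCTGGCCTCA
Igkv1-110: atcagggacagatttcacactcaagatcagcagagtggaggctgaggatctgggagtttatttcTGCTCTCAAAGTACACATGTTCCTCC
Igkv12-44 lies at chr6:69814631-69815154 and Igkv5-43 at chr6:69823355-69823943, both on the minus strand, and Igkv1-117 at chr6:68121046-68121827 and Igkv1-110 at chr6:68270485-68271267, both on the plus strand. The second set holds segments that were abundant in 1 or 2 libraries and scarce in others, together with Igkv8-30.
Igkv4-59: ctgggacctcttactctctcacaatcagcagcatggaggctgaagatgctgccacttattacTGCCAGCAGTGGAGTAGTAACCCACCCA
Igkv4-68: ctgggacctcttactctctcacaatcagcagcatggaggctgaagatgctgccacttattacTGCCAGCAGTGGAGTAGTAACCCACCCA
Igkv8-30: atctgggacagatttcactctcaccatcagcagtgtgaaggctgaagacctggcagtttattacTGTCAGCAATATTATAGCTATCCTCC
Igkv5-39: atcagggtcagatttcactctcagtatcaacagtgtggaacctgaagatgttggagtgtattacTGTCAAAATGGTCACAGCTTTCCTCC
Igkv6-25: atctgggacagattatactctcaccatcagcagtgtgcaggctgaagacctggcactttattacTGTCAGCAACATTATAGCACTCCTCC
Igkv3-2: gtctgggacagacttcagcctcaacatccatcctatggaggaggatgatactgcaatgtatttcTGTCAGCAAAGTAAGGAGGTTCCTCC
Of these, Igkv4-59 (chr6:69438218-69438757), Igkv4-68 (chr6:69304834-69305405), Igkv8-30 (chr6:70117061-70117620) and Igkv5-39 (chr6:69900424-69900977) are on the minus strand. Igkv6-25 (chr6:70215400-70215957) and Igkv3-2 (chr6:70698449-70699067) are on the plus strand.

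Printed segments of different families, the number before the hyphen, were far apart in sequence. Over the last 270 bases the 42 pairs of printed segments from different families were 56.7% to 75.4% identical by global alignment. Printed segments of the same family were close. Igkv1-117 and Igkv1-110 were 96.7% identical with 142 bases in their longest identical run, and Igkv4-59 and Igkv4-68 were 95.6% identical with a run of 130 bases. Among all members the families were less distinct. Igkv11-125 and Igkv14-111, of different families, were 82.2% identical, and Igkv14-130 was 80.4% identical to its closest member, Igkv14-111. The 90 bases printed for Igkv4-59 and Igkv4-68 are the same letter for letter, and the capitals are shared by 4 segments in all. A read from that end cannot be placed on 1 of them, so reads of same-family segments are uncertain where the run is longer than the read.

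Reads on Igkv segments made up a small part of every library, and their amount differed 5.98-fold between libraries in CPM. They numbered 2202, 10096, 7413, 996, 8002 and 3007 in libraries 18 to 23. Total exon reads ranged from 903524 in library 21 to 10122187 in library 19. Library 18 stood lowest by far when scaled, at 265 CPM, and without it the range was 951 to 1585 CPM. As a share of all exon reads, Igkv took 0.0275%, 0.0997%, 0.136%, 0.110%, 0.148% and 0.157% in libraries 18 to 23. The exact binomial 95% interval was 0.0263% to 0.0286% for library 18 and 0.151% to 0.163% for library 23. The intervals cover counting error only, since reads that are PCR copies of 1 molecule are not independent.

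Other transcripts of the antibody-making lineage differed alongside. Igkc, the constant exon of the same chain, was at 605, 1735, 3190, 3297, 4059 and 4505 CPM in libraries 18 to 23. The joining chain gene Jchain, used by cells that secrete polymeric IgM and IgA, was at 150, 480, 875, 955, 759 and 1185 CPM in libraries 18 to 23. Both were lowest in library 18, second lowest in library 19 and highest in library 23, as was the summed Igkv level in CPM. Of the B cell markers, the 3 genes Ms4a1, Cd79a and Cd79b, which encode surface proteins of B lymphocytes, were scarce and in another order, summing to 24.3, 13.8, 40.5, 24.1, 39.3 and 21.6 CPM. These sums rest on few reads, and the genes disagreed. In library 23 Cd79a was at its highest, 12.65 CPM from 24 reads, and Cd79b at its lowest, 1.054 CPM from 2 reads. The sum of the 13 B cell markers reported was lowest in library 19 (261 CPM) and highest in library 20 (891 CPM). Most of it was Ighm, at 225 and 802 CPM there. Single markers of the list had no common order. Ebf1, Cd22 and Blk were highest in library 18, where Igkv was lowest. Ms4a1, Fcer2a and Ighm were highest in library 20, and Pax5, Bank1 and Cr2 in library 21. Cd79b was highest in library 22, and Cd79a, Fcrla and Ighd in library 23. In bulk RNA, fewer cells of a type and less RNA per cell cannot be told apart.

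**Figure D1:**
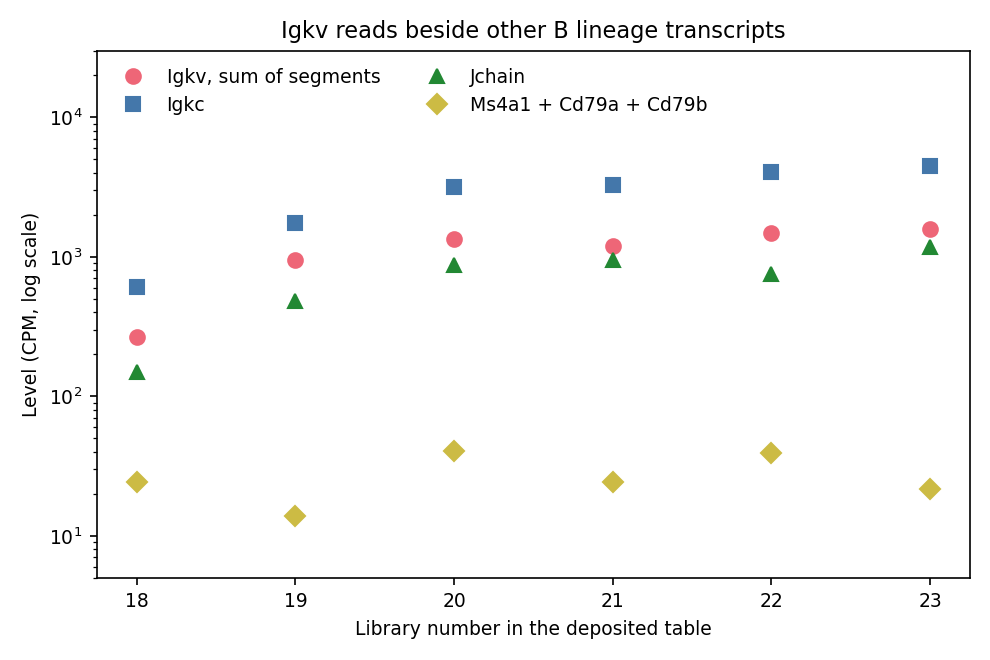
Level in CPM on a log scale (vertical) of the summed Igkv segments, Igkc, Jchain and the sum of 3 B lymphocyte genes in each of the 6 libraries (horizontal), 1 point per library and no error bar. The Igkv sum lies between 265 CPM (library 18) and 1585 CPM (library 23), below Igkc in every library. The 3 genes are Ms4a1, Cd79a and Cd79b, a part of the B cell markers, which had no common order.

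The ratio of Igkv to Igkc reads was less variable than either. It was 0.438, 0.548, 0.422, 0.365, 0.364 and 0.352 in libraries 18 to 23, with a 95% interval of 0.535 to 0.561 for library 19 and of 0.338 to 0.367 for library 23. Per kilobase of exon the ratio ranged from 0.496 in library 23 to 0.774 in library 19. Library 19 was the highest by both measures and its interval lay apart from those of the other 5 libraries. Lambda light chains were rarer: the reads of Igkc were 15.2 times those of the Iglc genes in library 21 and 50.9 times in library 19, with a median of 27.4.

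Of the 100 segments, 33 had a read in all 6 libraries, 52 in 1 to 5 libraries and 15 in none. The 15 without a read were Igkv1-132, Igkv1-131, Igkv9-129, Igkv10-95, Igkv4-92, Igkv4-78, Igkv4-71, Igkv4-54, Igkv8-34, Igkv7-33, Igkv6-29, Igkv8-26, Igkv3-9, Igkv3-3 and the single member of family 20. Library 18 had reads on 51 segments, library 19 on 71, library 20 on 75, library 21 on 55, library 22 on 70 and library 23 on 59. By depth alone, a segment at 0 could still hold up to 0.0297% of Igkv reads in library 19 and up to 0.301% in library 21. This bound leaves out reads that match more than 1 segment. Igkv6-29 shares a run of 253 bases with Igkv6-20, of whose 319 reads 25.1% were counted as unique. At a common depth of 996 Igkv reads, the depth of library 21, the expected numbers were 48.0, 57.8, 62.9, 55.0, 63.6 and 53.8 in libraries 18 to 23. Library 18 thus showed the fewest segments at equal depth as well.

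Usage was uneven in every library. The most read segment was Igkv12-44 in libraries 18, 21 and 22, with 12.0%, 15.1% and 8.62% of Igkv reads. It was Igkv4-59 in library 19 with 24.5% (Wilson 95% interval 23.7% to 25.3%), Igkv8-30 in library 20 with 10.8%, and Igkv6-25 in library 23 with 14.1%. The 10 most read segments of each library took 69.1%, 72.3%, 63.0%, 62.1%, 61.5% and 59.2% of the Igkv reads in libraries 18 to 23. Library 19 reached 50% of its reads with 4 segments, and the others needed 7 or 8.

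The effective number of segments is the number of equally used segments that would give the same diversity. Its order 1 form, the exponential of the Shannon entropy, was 23.5, 20.6, 29.9, 28.3, 31.4 and 29.3 in libraries 18 to 23. Its order 2 form, which weighs common segments more, was 17.4, 10.4, 19.4, 18.4, 21.7 and 19.0 in the same libraries. Libraries 18 and 19 were the least even by both, and the other 4 lay within 28.3 to 31.4 by order 1. Without the most read segment of each library the order 2 value of library 19 was 15.8, beside 17.99 in library 18 and 19.99 to 22.8 in the others. Pielou's evenness, the entropy over its maximum for 100 segments, ranged from 0.657 in library 19 to 0.749 in library 22.

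**Figure D2:**
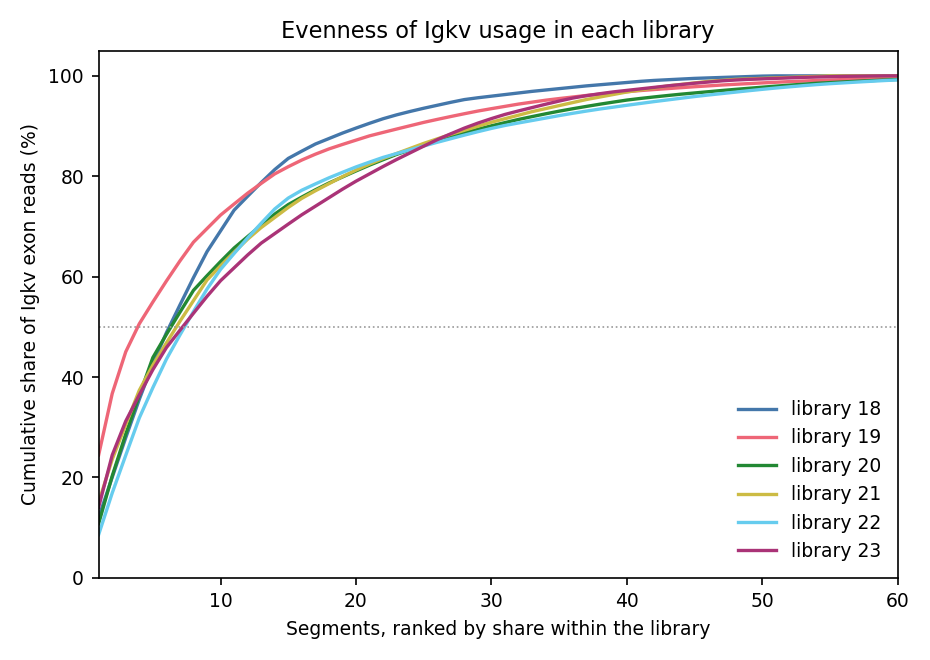
Cumulative share of Igkv exon reads in percent (vertical) against the segments ranked by share within each library (horizontal), 1 line per library, with a dotted line at 50%. The line of library 19 starts at 24.5% and crosses 50% at 4 segments, and those of the other 5 libraries cross at 7 or 8.

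A small set of segments was prominent in all 6 libraries. Igkv12-44, Igkv1-117, Igkv5-43 and Igkv1-110 were among the 10 most read in each, while 24 segments were so in at least 1. Igkv1-117, a member of family 1, held the steadiest share: 7.99%, 8.33%, 8.32%, 8.53%, 7.52% and 6.78% in libraries 18 to 23. Its highest share was 1.26 times its lowest, and of the 32 segments with at least 200 reads in total it was the 1 that stayed within a 2-fold range of share. Even so, the Wilson intervals of library 19 (7.81% to 8.89%) and library 23 (5.94% to 7.74%) lay apart. Igkv12-44, the segment with the highest mean share, had 12.0%, 12.2%, 7.68%, 15.1%, 8.62% and 3.36% in libraries 18 to 23, lowest in library 23 and highest in library 21. Igkv5-43, its neighbour on the chromosome, ranged from 3.74% in library 19 to 7.63% in library 18, and Igkv1-110 from 2.70% in library 19 to 5.45% in library 18.

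Other segments were abundant in single libraries. Igkv4-59, of the large family 4, had 6.18%, 24.5%, 2.28%, 4.12%, 0.712% and 1.90% in libraries 18 to 23, which is 2473 reads in library 19. Of all its reads 89.0% were counted as unique, the lowest fraction among the 15 leading segments, and on unique reads the highest share of a segment in any library was 22.7%. Igkv6-25 had 14.1% in library 23 (Wilson interval 12.9% to 15.4%), at most 2.91% in the other 5, and no read in library 18, where a count of 0 allows up to 0.136%. Igkv4-68 was high in library 18 at 7.08% and in library 23 at 10.3%, with 0.664%, 1.16% and 0.412% in libraries 19, 20 and 22 and no read in library 21. Igkv4-68 and Igkv4-59 thus peaked in different libraries although their printed ends are the same.

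Igkv8-30 had 7.90%, 2.69%, 10.8%, 6.93%, 4.47% and 1.33% in libraries 18 to 23, so that it led in library 20 and was scarce in library 23. Igkv5-39 had 9.50% in library 20 and 5.02% in library 23 but 0.999%, 0.891%, 1.41% and 2.85% in libraries 18, 19, 21 and 22. It is 91.9% identical to Igkv5-43, which did not share this order. Of family 3, Igkv3-2 took 8.27% of library 22 and at most 1.44% elsewhere, and Igkv3-10 took 7.44% of library 22 and at most 2.36% elsewhere. Igkv4-86 had 5.18% in library 18 and at most 0.769% in the others, and Igkv16-104 had 2.59% in library 18 and 3.39% in library 23, against at most 0.189% in the remaining 4.

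**Figure D3:**
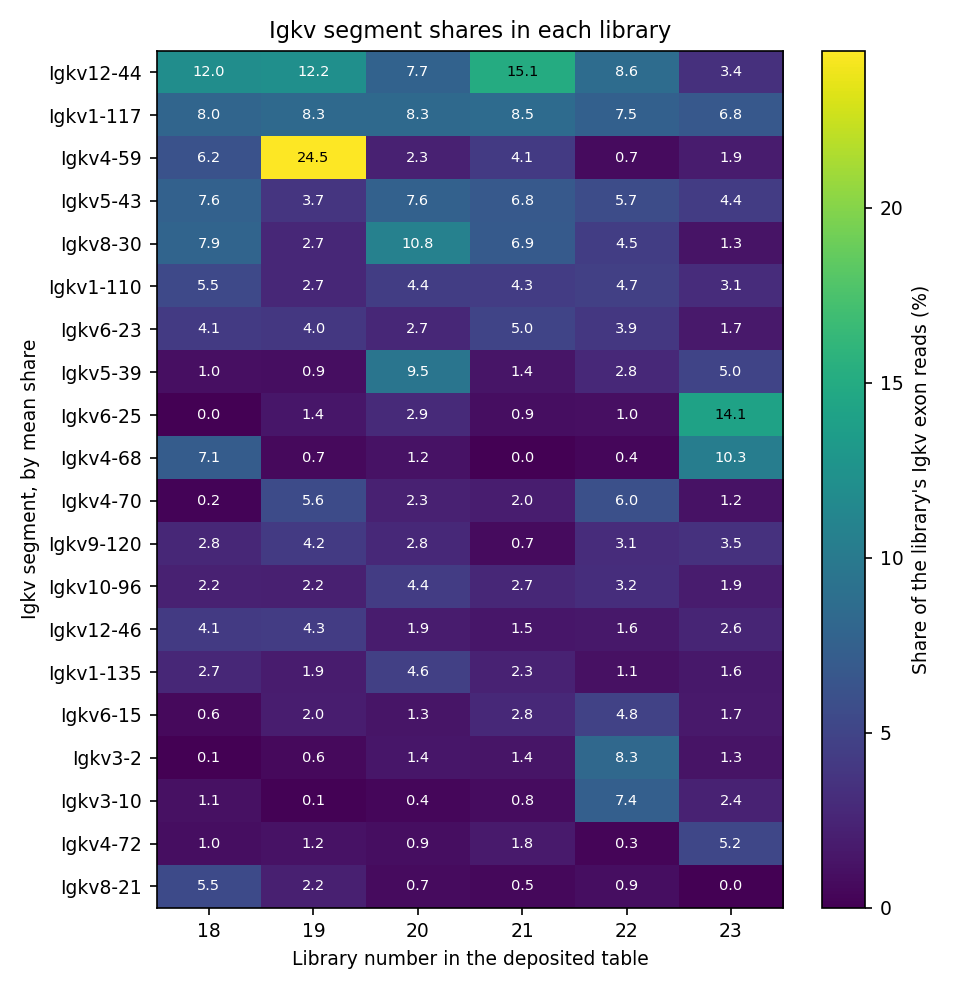
Share of the library's Igkv exon reads in percent (colour and printed value) for the 20 segments with the highest mean share (rows) in each of the 6 libraries (columns). Igkv1-117 lies between 6.78% and 8.53% throughout, while Igkv4-59 stands out in library 19, Igkv6-25 and Igkv4-68 in library 23 and Igkv3-2 and Igkv3-10 in library 22.

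The remaining leaders lay between these patterns. Igkv6-23 ranged from 1.70% in library 23 to 5.02% in library 21, Igkv4-70 from 0.227% in library 18 to 6.02% in library 22, and Igkv9-120 from 0.703% in library 21 to 4.18% in library 19. Igkv10-96 ranged from 1.86% in library 23 to 4.36% in library 20, Igkv12-46 from 1.51% in library 21 to 4.34% in library 19, and Igkv1-135 from 1.10% in library 22 to 4.61% in library 20. Exon lengths of the members ran from 338 to 501 bases, and 14 of the 15 segments with the highest mean share of reads were also among the 15 highest per kilobase. Among these 15 leading segments, the pairs with the most similar order over the 6 libraries, as a description only, were Igkv12-44 and Igkv6-23 (Spearman's rho 0.94 over 6 libraries) and Igkv5-43 and Igkv8-30 (rho 0.89). Shares within a library sum to 100%, so they are not independent of each other.

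The 32 segments with enough reads to test differed in level among the libraries beyond what counting gives. Counts were set against depth in a chi-square test (5 degrees of freedom, TMM library sizes, Benjamini-Hochberg adjustment over all genes with at least 200 reads), and 32 of 32 members passed, where 71.6% of the 9042 genes tested did. The highest adjusted p among them was 1.06e-12, for Igkv8-21. Members entered this test by reads summed over the libraries, some of them mainly through the library where they were highest. Igkv3-10 had 595 of its 742 reads in library 22, and Igkv3-2 had 662 of 882 there. Such members were likely to pass for that reason, so 32 of 32 beside 71.6% is a description only. Depth alone is taken out by this test, so the lower Igkv total of library 18 enters every one of the 32. The ratio of highest to lowest CPM, with 1 CPM added to each, had a median of 18.7 over the 32 segments and of 1.55 over all genes tested, and ranged from 3.53 for Igkv12-46 to 224 for Igkv6-25. Wide ranges were not particular to Igkv: the 25 heavy chain variable (Ighv) segments tested had a median of 13.2, from 2.92 to 75.8. Against the Igkv totals in place of the library sizes, the chi-square statistic of the 32 segments was 101.9 per degree of freedom. Counting error alone gives about 1. These are the same segments, chosen by summed reads, and PCR copies are not independent reads, so this value too is a description only. The other 53 segments with reads were too scarce for the test.

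The other 13 segments with at least 200 reads had mean shares of at most 2.20%, that of Igkv6-15, but some ranked high in a library. Igkv8-21 had 5.54% in library 18 and no read in library 23. Igkv4-72 peaked in library 23 at 5.22%, where it ranked above Igkv5-43 and Igkv12-44, Igkv6-15 in library 22 at 4.82% and Igkv3-5 in library 21 at 4.42%. Each of these 4 was among the 10 most read segments of the library named with its highest share. Igkv4-55 reached 2.92% and Igkv6-20 2.17% in library 22, Igkv14-111 reached 2.61% and Igkv15-103 1.20% in library 21, and Igkv19-93 reached 2.56% in library 23. Igkv6-17 reached 2.21% in library 20. Igkv8-27, Igkv17-127 and Igkv17-121 stayed at or under 1.46%. Of the 53 segments with fewer reads, Igkv5-48, with 176 in total, was among the 10 most read segments of library 21, at 4.12% from 41 reads. Of the same 53, 8 were read in 1 library only, and Igkv8-18 had the most reads of these, 34 in library 20.

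The members fall into 20 families of unlike size. Family 4, with 26 members, took 21.6%, 34.7%, 11.2%, 12.7%, 14.3% and 25.7% of Igkv reads in libraries 18 to 23. Its median of 17.9% lay below its 26.0% of the members. Family 12, with 6 members led by Igkv12-44, had a median of 13.6%, and family 5, with 5 members, one of 10.5%. Family 1 was the steadiest of the large families, from 12.2% in library 23 to 17.9% in library 20. Family 3 ranged from 1.44% in library 19 to 19.6% in library 22, and family 8 from 2.39% in library 23 to 15.2% in library 18. No read fell on the single members of families 7 and 20.

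The kappa locus joins segments in both orientations: a segment on the strand of Igkc joins by deletion of the DNA between, and one on the opposite strand by inversion. The 62 minus-strand segments, opposite to Igkc, took 72.8%, 74.9%, 65.3%, 66.2%, 57.9% and 55.9% of the Igkv reads in libraries 18 to 23. The 38 plus-strand segments took the rest, highest in library 23 at 44.1%. With the members set out by distance to Igkc in groups of 25, the group at 609 to 1309 kb had a median share of 42.5%, with a range of 26.5% in library 23 to 52.2% in library 19. It holds Igkv12-44, Igkv5-43, Igkv8-30, Igkv5-39 and Igkv4-59. The next group outward, at 1326 to 2155 kb, had 24.5% in library 23 and 11.1% to 17.5% elsewhere. The nearest group, at 22.3 to 587 kb, had 34.1% in library 22 and 14.6% to 24.9% elsewhere, and the farthest group, at 2184 to 3170 kb, which holds Igkv1-117 and Igkv1-110, kept to 21.2% to 26.5%.

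**Figure D4:**
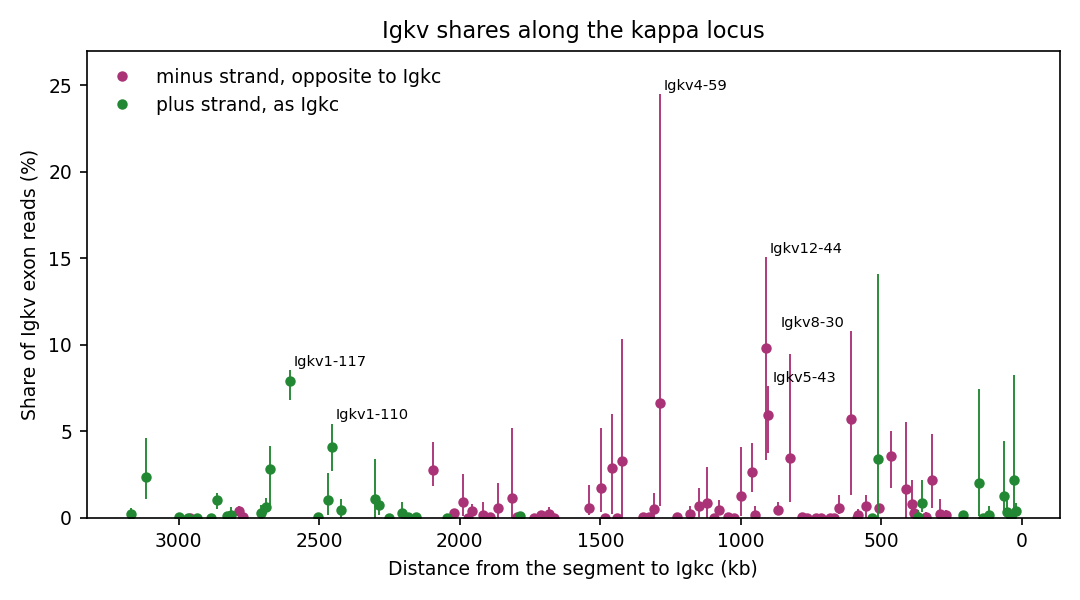
Share of Igkv exon reads in percent (vertical) against the distance from each of the 100 segments to Igkc in kilobases (horizontal, nearest at the right). Points are means over the 6 libraries, lines run from the lowest to the highest library, and colour gives the strand. The line of Igkv4-59 reaches 24.5%, and that of Igkv1-117 spans 6.78% to 8.53%.

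Between libraries, the shared part of the segment profile, the sum over segments of the lower of both shares, ranged from 48.1% for libraries 19 and 23 to 66.6% for libraries 20 and 21, with a median of 58.7% over the 15 pairs. Library 23 was the least like the others, with 48.1% to 54.2% in its 5 pairs. Over all 100 segments the order of shares was similar in every pair, with Spearman's rho from 0.63 to 0.82, as a description over segments that include those at 0 in both libraries.

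Among other genes of light chain formation and expression, 33 were listed, 13 had at least 200 reads in total and 11 of these varied beyond counting error, against 71.6% of all genes tested. Pou2f1 and Pou2f2, which encode the octamer-binding factors of immunoglobulin promoters and are also made in T cells, had medians of 121 and 46.4 CPM. Pou2f2 (adjusted p = 0.111, chi-square test) and the E protein gene Tcf3 (adjusted p = 0.530) missed the threshold. Pou2af1, their B cell coactivator gene, was lowest in library 19 at 3.86 CPM and highest in library 23 at 10.5 CPM. The recombinase genes Rag1 and Rag2 had 6 and 4 reads over all libraries, and the Igkj segments, whose exons are of 38 or 39 bases, had 5 reads together.

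Markers of other cells were counted over their lists. The 13 B cell markers reported were all read, and summed to 421, 261, 891, 646, 705 and 762 CPM in libraries 18 to 23, of which Ighm was 339, 225, 802, 554, 619 and 696 CPM. The 12 plasma cell markers, Jchain among them, summed to 591, 1104, 1379, 1305, 1289 and 1603 CPM, but Slamf7, Prdm1, Txndc5, Irf4 and Xbp1 are also made by T cells. Of the others, Sdc1 ranged from 4.82 to 11.1 CPM and Mzb1 from 0.482 to 13.7 CPM. Derl3 ranged from 0.361 to 6.85 CPM and Fkbp11 from 0.241 to 4.83 CPM. Tnfrsf17 was at 0 in 2 libraries and Eaf2 in 1. Which cells gave these reads, those of Sdc1 included, was not tested. Erythroid markers summed to 3.98 and 4.80 CPM in libraries 18 and 19, and to 62.8 to 281 CPM in the other 4. Libraries 18 and 19 also had the lowest order 1 values for Igkv, the most exon reads and the lowest Igkv, Igkc and Jchain levels. Over 6 libraries these shared traits cannot be told apart. Of 6 myeloid markers 5 were found by name, and they summed to 1.21 to 4.34 CPM with S100a8 at 0 throughout. The part of these cells in the Igkv differences was not tested.

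Set beside the other variable segments of the same libraries, the evenness of Igkv usage overlapped that of the heavy chain. The order 1 effective number was 20.6 to 31.4 for the 100 Igkv segments and 21.8 to 40.04 for the 113 Ighv segments. It was 3.20 to 5.32 for 108 Trav and 5.62 to 6.81 for 22 Trbv segments, the receptor chains that the sorted cells themselves carry, and in every library it was higher for Igkv than for Trav or Trbv. The invariant segment Trav11 took 67.2% to 76.7% of Trav reads, and Trbv29 took 33.6% to 39.0% of Trbv reads. Sorting cells by an invariant receptor sets a low Trav number in advance, and 22 Trbv segments cannot give one above 22. The order of these kinds is therefore no result about Igkv. The least even Ighv profile was that of library 21, where Ighv7-3 took 24.2%, not that of library 19. These differences were not tested, and the kinds differ in number of segments and reads.

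**Figure D5:**
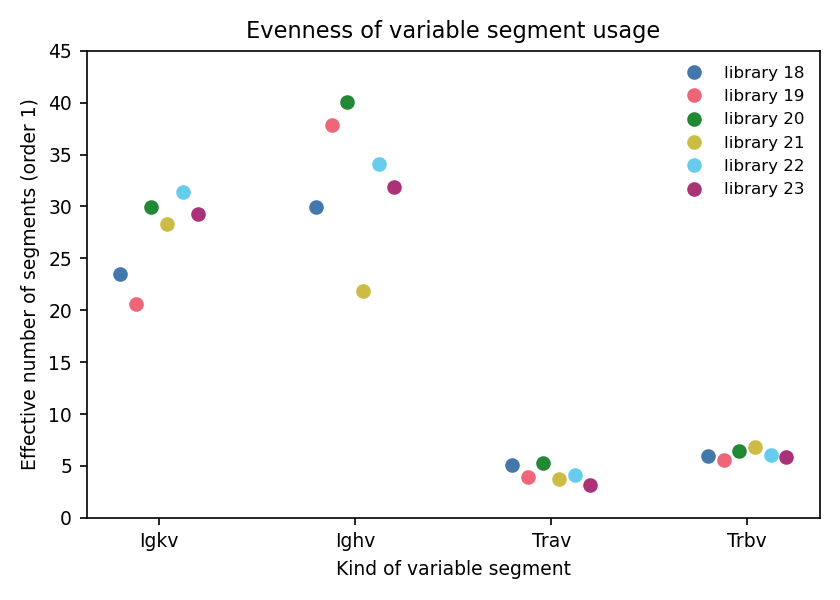
Effective number of segments of order 1 (vertical) for 4 kinds of variable segment (horizontal), 1 point per library in colour and no error bar. Igkv lies between 20.6 and 31.4, Ighv between 21.8 and 40.04, and Trav and Trbv at 6.81 or below.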

How the data were processed

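Per the labels' protocols, sorted splenic NKT cells gave RNA through the NucleoSpin RNA XS Micro kit, and QIAseq UPXome made the libraries, and the submitters' processing notes name GRCm38 and mm10. The aligner, the counting tool, and the use of strand and molecular identifiers were not given in the sources used here. Per the file headers, the deposited table gives whole-number counts of total exon reads per gene, the fraction of them that is unique, and exon lengths. The counts are not normalized by the authors. A further 12 columns of values per library were not used.

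Unique reads were recovered as the deposited fraction times the count, whole to within 0.01. CPM used effective library sizes, with TMM factors from edgeR 4.0.16 in R 4.3.3 on 9510 genes kept by filterByExpr. Shares are of all Igkv exon reads. The chi-square test (SciPy 1.17.1) took genes with at least 200 reads and an adjusted p threshold of 0.05. It was tried on simulated counts that held set changes and counting error only, without PCR copies. A count of 0 allows 3 reads, and intervals are at 95%. Alignments used Biopython 1.88. Alternatives were unique reads, DESeq2 size factors, plain CPM, reads per kilobase, other minimum counts, a common depth, pseudogene rows added, the leading segment left out and leaving out each library. The planned comparison of Gpx4 cKO with WT was not run, because no library could be matched to a sample. Segments were named by mean share (15), rank in a library (3 each) and ratio of highest to median share (5); the other tested segments and those read in 1 library were added after their values were seen. Members, lists and tests were chosen with earlier results of these data known. One listed marker is not reported here.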

Additional observations from a re-analysis of the deposited data

Results flagged for a closer look

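Shares of 5 named segments lay far from the other libraries in a single library, by Dixon's criterion over the 6 libraries, which was applied to the 19 named segments and to 8 values per library. Chance flags about 1 in 20 values that were not chosen for their spread. That rate does not apply to segments named for a high ratio of highest to median share or for their rank in a library, as all 5 given here were, so their number is a description. Shares of 1 library are not independent of each other. Igkv4-59 was at 24.5% in library 19, where the next highest library had 6.18%. Igkv6-25 was at 14.1% in library 23, where the next had 2.91%. Igkv3-2 at 8.27% and Igkv3-10 at 7.44% both stood out in library 22, where the next libraries had 1.44% and 2.36%. Igkv4-86 was at 5.18% in library 18, where the next had 0.769%. The summed Igkv level and the evenness values were not flagged.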

How the results depend on the processing

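Of 41 alternative settings that kept all libraries, 38 moved the median over libraries by less than 1 SD over libraries, or the count by less than 1.5 times. This rule is lenient for segments high in 1 library, where the SD can exceed the median. For the share of Igkv6-25 the median was 1.199% and the SD 5.335%, so hardly any setting could have moved it. Restricted to segments with at least 10 reads in total, the median Pielou evenness was 0.778, against 0.730, since fewer segments enter its maximum. With a minimum of 50 reads, 58 of 58 Igkv segments tested varied beyond counting error, beside 69.3% of all genes tested. With a minimum of 1000 reads 10 of 10 did, beside 79.3%. The main setting gave 32 of 32, beside 71.6%, because the minimum sets how many are tested. DESeq2 size factors gave 32 of 32, beside 71.5%. Leaving out 1 library at a time gave 23 to 30, all that were then tested, beside 61.0% to 68.4% of all genes. These counts are descriptions only, as members entered by summed reads. On unique reads the order 1 effective number was 21.1 to 30.8, and at the common depth, an alternative chosen after seeing the data, 19.9 to 30.4. Library 19 was lowest at the common depth. No paired analysis was possible because no library could be matched to a sample or replicate number. For the same reason the genotype fit with a replicate block was not run. Depth limits library 21 most, with 996 Igkv reads.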

Other observations

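Igkv6-20 stood apart in its reads: of 319 reads over all libraries 25.1% were counted as unique. Its closest member, Igkv6-29, is 98.1% identical over the last 270 bases, shares a run of 253 bases and is listed at 0 in all 6 libraries. By unique reads Igkv6-20 is therefore known far less well than its share, up to 2.17% in library 22, shows. The 60 Igkv rows with a pseudogene biotype, which are no members, held 30 reads in all, on 10 rows.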
